A study of Mus musculus with 6 samples.

Results

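Acta2, Tagln, Cnn1, Myh11, Myocd, Srf, Myl9, Tpm1, Smtn and Des are genes of smooth muscle differentiation, a fate of the neural crest cells that surround the pharyngeal arch arteries. They were chosen by name and not by a measured value, but with earlier results of these data known. They are 10 of the 21776 protein-coding genes of the RefSeq gene table (build GRCm38, the same as mm10). A peak belonged to a gene when it lay within 1 kb of either annotated end of the gene (a boundary peak), in the gene body, or between genes with that gene as the nearest within 100 kb. By this rule the 10 genes held 16 of 31873 and 15 of 26927 peaks in CHD7 libraries 1 and 2, and 15 of 24283 and 16 of 22686 peaks in H3K27ac libraries 1 and 2. They held 0 of 451 and 0 of 512 peaks called in the input libraries.

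The cells came from mouse embryos at E10.5 whose fathers carried Wnt1-Cre2, a Cre driver of the neural crest lineage, and whose mothers carried mTmG, a reporter that turns on green fluorescent protein (GFP) where Cre has acted. GFP+ cells of pharyngeal arches 3 to 6 were sorted, and their chromatin was precipitated with an antibody to CHD7, with an antibody to H3K27ac, or sequenced as input. The 3 groups differed in the antibody alone, with no mutant or treated group, and each had 2 libraries that the labels do not tie to separate litters or sorts, so the spread between them may be technical. The sort took crest-derived cells by lineage and did not select cells that had entered the smooth muscle fate.

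CHD7 is an ATP-dependent chromatin remodeller, and H3K27ac marks histones near active promoters and enhancers. Smooth muscle genes are classically switched on by serum response factor, the product of Srf, which binds CArG boxes (CC, 6 bases of A or T, then GG) and recruits the coactivator myocardin, the product of Myocd. Their targets include the contractile proteins encoded by Acta2, Myh11, Myl9 and Tpm1, the actin-binding proteins encoded by Tagln, Cnn1 and Smtn, and the intermediate filament protein desmin, encoded by Des. Crest cells around the arch arteries take on this program as the arteries gain their muscular wall.

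RefSeq promoters (250 bases before to 50 after the annotated start site, GRCm38.p6) were matched for 7 of the 10 genes, leaving Tagln, Myh11 and Myocd. The promoters of Srf, Myl9 and Acta2 are shown because they are the 3 with a CArG box or a near match and because they differ in what was called there: CHD7 and H3K27ac at the first pair, neither at Acta2. Capitals mark CArG boxes, exact or with 1 base of G or C among the middle 6. The motif reads alike on both strands, and the marked boxes do not overlap. Srf lies at chr17:46556113-46556412 on the minus strand, Myl9 at chr2:156775214-156775513 on the plus strand, and Acta2 at chr19:34255324-34255623 on the minus strand.
Srf: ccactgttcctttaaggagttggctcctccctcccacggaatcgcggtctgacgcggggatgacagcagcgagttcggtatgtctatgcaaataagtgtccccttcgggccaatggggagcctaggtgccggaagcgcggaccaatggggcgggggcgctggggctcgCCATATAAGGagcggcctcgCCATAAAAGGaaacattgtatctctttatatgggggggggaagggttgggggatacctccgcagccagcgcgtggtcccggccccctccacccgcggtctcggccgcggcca
Myl9: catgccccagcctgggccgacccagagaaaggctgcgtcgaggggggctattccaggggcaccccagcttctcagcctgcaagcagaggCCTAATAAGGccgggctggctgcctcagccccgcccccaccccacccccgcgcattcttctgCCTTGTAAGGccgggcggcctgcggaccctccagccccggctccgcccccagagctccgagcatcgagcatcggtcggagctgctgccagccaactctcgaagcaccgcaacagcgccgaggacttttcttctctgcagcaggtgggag
Acta2: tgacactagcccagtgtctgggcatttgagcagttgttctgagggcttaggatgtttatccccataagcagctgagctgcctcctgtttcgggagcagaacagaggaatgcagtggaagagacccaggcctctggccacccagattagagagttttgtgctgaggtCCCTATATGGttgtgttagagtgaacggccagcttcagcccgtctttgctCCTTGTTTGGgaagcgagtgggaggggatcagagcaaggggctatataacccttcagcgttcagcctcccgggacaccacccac

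Srf held 2 exact boxes, CCATATAAGG and CCATAAAAGG, whose first bases lay 82 and 62 bases before the start site. Myl9 held the exact box CCTAATAAGG at 161 bases and the near match CCTTGTAAGG at 99 bases before its start site. Acta2 held 2 near matches, CCCTATATGG at 84 and CCTTGTTTGG at 34 bases before its start site, and no exact box. The promoters of Cnn1, Tpm1, Smtn and Des held neither form within the 300 bases. Of 21263 promoters of protein-coding genes, 1.52% held an exact box and 9.58% held an exact box or a near match. Only 5 of these promoters held 2 or more exact boxes. Over all promoters, CHD7 was called within 1 kb of 37.3% of those with an exact box and 44.2% of those without, and H3K27ac of 39.8% and 48.6%.

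CHD7 was called in both libraries at 4 of the 10 genes and H3K27ac at 7. A consensus region is the merged extent of overlapping peaks found in both libraries of an antibody. There were 9 CHD7 regions, at Srf, Myl9, Tpm1 and Smtn, and 13 H3K27ac regions, at the same genes and at Tagln, Cnn1 and Des. Acta2, Myh11 and Myocd had no region of either kind. Over all protein-coding genes the same rule called CHD7 at 55.6%, H3K27ac at 56.6% and neither at 36.9%, and with 10 genes the counts of 4, 7 and 3 are not read as a difference from these shares.

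Within 1 kb of a gene end, CHD7 lay at 4 of the 10 genes (Srf, Myl9, Tpm1 and Smtn), against 44.2% of all protein-coding genes. H3K27ac lay there at 5 (Tagln, Myl9, Tpm1, Smtn and Des), against 47.6%, and both lay at an end of 3 (Myl9, Tpm1 and Smtn), against 39.3%. These counts are close to the background. Regions of the same gene are not independent of each other. At Smtn the CHD7 and H3K27ac regions lay at opposite ends, with 20929 bp between them. Among boundary regions, the one farthest from an end lay 403 bp away (CHD7 at Tpm1), and the nearest region outside the 1 kb limit lay 2130 bp away (CHD7 in the body of Srf). For H3K27ac these distances were 327 bp (Tpm1) and 2143 bp (Srf). The farthest regions within the 100 kb limit lay 62.4 kb (CHD7) and 56.0 kb (H3K27ac) from Tpm1, and no region farther out had a member as its nearest gene over the span searched.

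In single libraries, CHD7 peaks lay within 1 kb of an end of 5 and 6 members in libraries 1 and 2, where 51.1% and 49.1% of all genes had one. H3K27ac peaks lay there at 6 and 5 members, against 51.3% and 49.8% of all genes. Input peaks lay at none of the 10, against 0.0689% and 0.133% of all genes. The mean number of members was 5.5 ± 0.71 (SD, n = 2) for either antibody, a difference of 0 (exact permutation test, two-sided, p = 1). With 2 against 2 libraries this test cannot give a p below 0.333.

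Around annotated start sites the genes separated in a different way. The promoter table gives the direction of transcription, which the gene table does not, and shows that the annotated end of Srf nearest its promoter lies 2105 bp before the start site. Within 1 kb of the start site, CHD7 and H3K27ac both lay at 3 of the 7 matched genes (Srf, Myl9 and Tpm1), H3K27ac alone at 2 (Smtn and Des), and neither at 2 (Cnn1 and Acta2). Over 17492 genes with such a site the shares were 45.4% for CHD7, 49.7% for H3K27ac, 41.0% for both and 8.67% for H3K27ac alone. This comparison was added after the data had been seen.

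**Figure D1:**
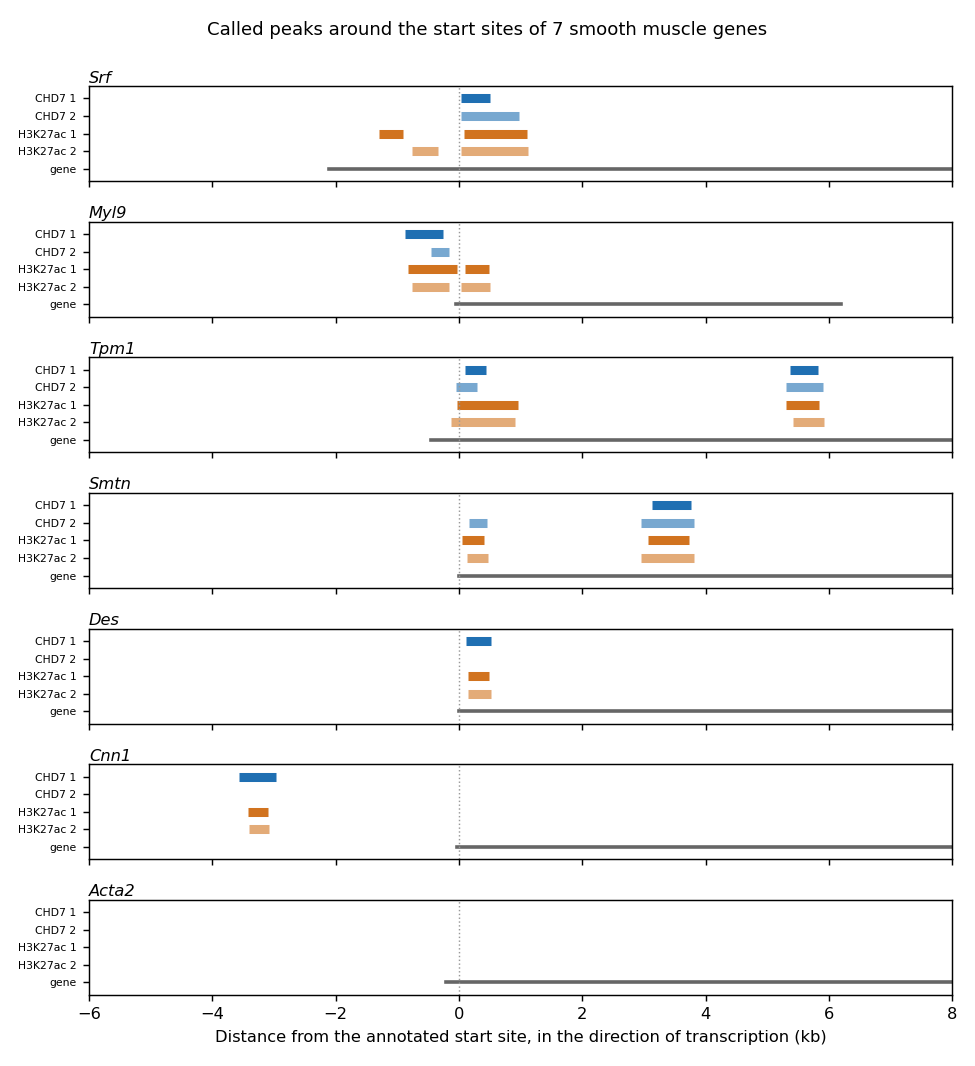
Called peaks around the start sites of 7 smooth muscle genes, drawn to scale. The x axis gives the distance from the annotated start site in kb, in the direction of transcription, the coloured bars are peaks of each CHD7 and H3K27ac library, and the grey bar is the gene. Srf, Myl9 and Tpm1 have peaks of all 4 libraries at the start site, Des lacks CHD7 library 2 there and Smtn lacks CHD7 library 1, and Acta2 has no peak in the window.

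Of the regulators, Srf carried the H3K27ac region of highest fold among the 10 genes. The fold is the enrichment at the summit of a peak as given by the authors' peak caller, and is compared only within lists of 1 antibody. The H3K27ac region (17, 46555040 to 46556124) had folds of 5.35 and 4.55 in libraries 1 and 2, a mean of 4.95 ± 0.57 (SD, n = 2). That mean was above 84.6% of all H3K27ac regions in gene bodies, its class by the rule, and above 63.6% of those at gene ends. The region began 38 bp downstream of the start site. A CHD7 region (46555192 to 46556137, 25 bp downstream) with folds of 3.72 and 3.18 overlapped it over 933 bp, which is 98.6% of its length. The 2 CArG boxes of Srf shown above lay outside these peaks in every library. The nearer box was 88 and 78 bases from the CHD7 peaks and 141 and 91 bases from the H3K27ac peaks of libraries 1 and 2. Upstream of the boxes, H3K27ac library 2 had a further peak (46556500 to 46556926, fold 2.80) and library 1 one farther out (46557069 to 46557460, fold 2.27), which did not overlap each other.

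Srf also had a CHD7 region at its other end, where transcription ends (46546051 to 46547171, folds 3.41 and 2.90). That region contained the annotated start site of the neighbouring gene Cul9, so the boundary call of Srf cannot be told apart from a call at Cul9. H3K27ac was called over part of it in library 1 alone, with a fold of 2.77.

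Myocd, the coactivator gene, had no CHD7 or H3K27ac region over its 96.4 kb. CHD7 library 1 had a single peak in its body, 41.7 kb from the nearer end, with a fold of 2.37. Library 2 had a body peak 43.1 kb from the other end, with a fold of 2.79, and a peak 23 bp from the upper end (11, 65269599 to 65269966) with a fold of 2.42. None of the 3 peaks recurred in the other CHD7 library or overlapped H3K27ac, and no H3K27ac peak of either library was assigned to Myocd. The nearest regions of both antibodies lay in Arhgap44, 10.7 kb and 10.6 kb beyond the gene.

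Among the contractile genes, Acta2, which encodes smooth muscle alpha-actin, and Myh11, which encodes smooth muscle myosin heavy chain, had no peak of any of the 6 libraries. The nearest CHD7 and H3K27ac regions to Acta2 lay at Stambpl1, 46.5 and 47.2 kb away, and overlapped each other. Their mean folds were 3.27 ± 0.74 and 3.78 ± 0.33 (SD, n = 2). Those nearest to Myh11 overlapped each other at Cep20, 24.5 and 24.3 kb away, with mean folds of 2.89 ± 0.27 and 5.50 ± 1.08. Both pairs belonged to another gene by the rule. The lists hold called peaks alone, so the absence of a peak is not a measured level of 0. In a sorted population, a mark in few cells and a weak mark in many cells cannot be told apart.

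Myl9, which encodes a regulatory light chain of myosin, had both antibodies just before its start site. The H3K27ac region (2, 156774639 to 156775439) had folds of 4.25 and 4.39, and the CHD7 region (156774586 to 156775301) had folds of 3.30 and 3.01. They shared 663 bp. The exact CArG box of Myl9 and its near match lay inside the H3K27ac peak of library 1, while the peak of library 2 ended on the first base of the exact box. The CHD7 peaks ended before the exact box, which began 92 bases past the peak of library 1 and 2 bases past that of library 2. A second H3K27ac region (156775497 to 156775967, folds 3.02 and 3.57) began 33 bp after the start site and met no CHD7 peak in either library.

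Tpm1, which encodes a tropomyosin that lies along actin filaments, had the most regions of the 10 genes, 4 of CHD7 and 3 of H3K27ac. At its start site the CHD7 region (9, 67048776 to 67049269) had folds of 2.34 and 2.13, a mean of 2.23 ± 0.15 (SD, n = 2), and only 0.647% of all CHD7 boundary regions had a lower mean. The H3K27ac region around it had folds of 3.82 and 3.63. Inside the gene, 5.3 kb downstream of the start site, a CHD7 region (67043315 to 67043905, folds 2.69 and 2.67) lay wholly within an H3K27ac region with folds of 3.43 and 3.54.

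Upstream of Tpm1, between genes, CHD7 and H3K27ac regions did not meet. The CHD7 regions lay 22.2 kb (folds 3.60 and 3.96) and 62.4 kb (folds 3.62 and 3.02) from the gene, and the H3K27ac region lay 56.0 kb away (folds 3.13 and 2.48). CHD7 library 1 alone had a peak over that H3K27ac region, with a fold of 2.98. The distal CHD7 regions thus had higher folds than the CHD7 region at the start site in each library.

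Of the actin-binding genes, Tagln, which encodes SM22-alpha, had H3K27ac over its upper end (9, 45935515 to 45936793) with folds of 3.24 and 2.97. CHD7 was called there in library 2 alone, with a fold of 2.82, at a place that also lay within 1 kb of Sidt2. Cnn1, which encodes calponin, had an H3K27ac region 3.05 kb before the gene (9, 22095837 to 22096173, folds 3.10 and 3.72). CHD7 was called over it in library 1 alone, with a fold of 3.56, and no peak of any library lay within 1 kb of either end of Cnn1.

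Smtn, which encodes smoothelin, a protein of contractile smooth muscle, had CHD7 with H3K27ac in its body and H3K27ac at its start site. In the body, 2.95 kb downstream of the start site, the CHD7 region (11, 3535473 to 3536340) had folds of 4.20 and 3.14, and the H3K27ac region inside it had folds of 3.41 and 3.22. The H3K27ac region 47 bp after the start site (3538826 to 3539245) had folds of 4.03 and 2.68, the widest gap between libraries among the 13 H3K27ac regions (SD 0.95). CHD7 was called over it in library 2 alone, with a fold of 2.82. At the end of transcription, CHD7 (3517228 to 3517897, folds 3.18 and 3.38) lay without H3K27ac in either library and within 1 kb of Selenom, whose annotated start site was 2544 bp away. A further H3K27ac region with folds of 3.07 and 3.65 lay 33.3 kb upstream of Smtn, without CHD7 in either library.

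Des had H3K27ac 139 bp after its start site (1, 75360431 to 75360818) with folds of 2.88 and 3.46. CHD7 was called over it in library 1 alone, with a fold of 3.06. Des also had an H3K27ac region 14.9 kb upstream with folds of 2.48 and 2.55, the lowest mean of the 13, and CHD7 library 2 had a peak over it with a fold of 2.48.

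**Figure D2:**
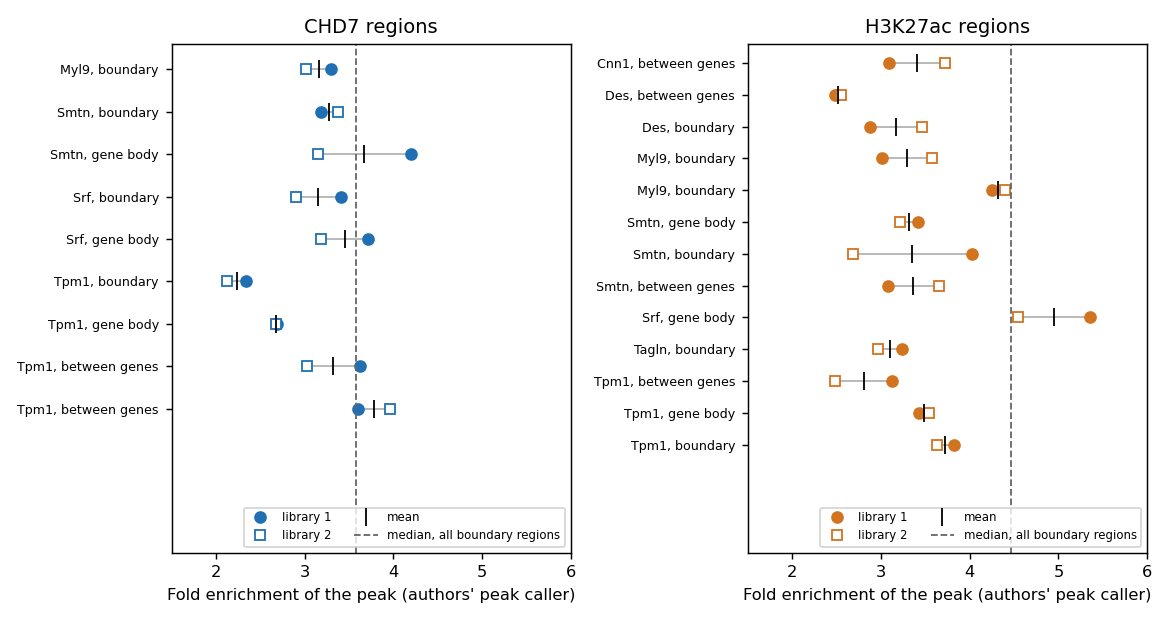
Fold enrichment of the 9 CHD7 regions (left) and 13 H3K27ac regions (right) of the smooth muscle genes. The x axis is the fold given by the authors' peak caller, circles and squares are libraries 1 and 2, ticks their mean, and dashed lines the median over all boundary regions of that antibody (3.58 and 4.46). All boundary regions of the members have means below these lines, and Srf has the highest H3K27ac mean, 4.95.

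The folds at gene ends were set among those of all boundary regions. The mean folds of all 4 CHD7 boundary regions lay below 3.58, the median of 10197 CHD7 boundary regions, and those of all 6 H3K27ac boundary regions lay below 4.46, the median of 11214. They ranked above 0.647% to 33.9% of the CHD7 and 9.07% to 45.6% of the H3K27ac boundary regions. The H3K27ac region after the start site of Srf, which counts as gene body because the annotated end lies farther out, had a mean fold of 4.95, above that median and above 63.6% of the boundary regions. The CHD7 region there had a mean of 3.45, above 43.0% of them. Away from the ends, 2 of 5 CHD7 and 4 of 7 H3K27ac regions lay below the median of their class. No test was made of these ranks.

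CHD7 and H3K27ac regions overlapped at 5 places in 4 genes, those just described in Srf, Myl9 and Smtn and the pair in Tpm1. Thus 5 of the 9 CHD7 regions carried H3K27ac, where 60.4% of all CHD7 regions did, and 5 of the 13 H3K27ac regions carried CHD7, where 66.8% of all did. By position, 2 of 4 CHD7 regions at ends, 3 of 3 in bodies and 0 of 2 between genes carried H3K27ac, against 80.4%, 44.3% and 34.9% of all CHD7 regions in these classes. Of the H3K27ac regions, 2 of 6 at ends, 3 of 3 in bodies and 0 of 4 between genes carried CHD7, against 72.0%, 57.4% and 58.1%. The body class includes the Srf pair, 25 bp (CHD7) and 38 bp (H3K27ac) downstream of the start site. The CHD7 regions at ends include those where transcription of Srf and Smtn ends, beside Cul9 and Selenom. The classes thus do not separate start sites from other places.

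Most of the H3K27ac regions without a CHD7 region had CHD7 in 1 library. Counting a peak of at least 1 CHD7 library, 11 of the 13 H3K27ac regions were met by CHD7, against 84.9% of all H3K27ac regions, and the exceptions were the second region of Myl9 and the distal region of Smtn. In the same way, 6 of the 9 CHD7 regions were met by H3K27ac of at least 1 library, against 70.4%. Of the CHD7 peaks at these genes, 9 of 16 in library 1 and 10 of 15 in library 2 lay in a consensus region, where 65.1% and 76.6% of all peaks of these libraries did. For H3K27ac, 13 of 15 and 14 of 16 did, against 75.8% and 81.3%. Where a peak of either library was enough, CHD7 lay at an end of 7 members, Tagln, Myocd and Des being added, against 55.1% of all genes, and H3K27ac at 6, against 53.3%. With a −log10 q of 5 or more in both libraries, CHD7 lay at an end of 1 member (Smtn), against 29.5% of all genes, and H3K27ac at 2 (Myl9 and Tpm1), against 41.1%. With 10 or more, CHD7 lay at 0, against 10.6%, and H3K27ac at the same 2, against 28.3%. The calls of H3K27ac without CHD7 at Tagln, Cnn1 and Des, and at the start site of Smtn, therefore depend on the need for CHD7 in both libraries.

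The promoters of the 7 matched genes also differed in CpG dinucleotides, which the rule did not use and which were counted after the data had been seen. Acta2 and Cnn1, with neither antibody, had 6 CpG in 300 bases each. Smtn and Des, with H3K27ac alone, had 11 each. Myl9, Tpm1 and Srf, with both, had 20, 27 and 25. This order holds for the calls made in both libraries without a further q limit. Where a peak of either library was enough, Smtn and Des also had both, as did 51.1% of all genes with a start site. With a −log10 q of 5 or more, Srf had both (27.2% of all genes did), Tpm1 and Myl9 had H3K27ac alone, and Smtn and Des had neither, so the order was not kept.

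Over all promoters, the shares with CHD7, with H3K27ac and with both rose with the CpG count, and the share with H3K27ac alone stayed between 11.8% and 13.8% in the 4 groups with 10 or more CpG. Of 3161 promoters with 5 to 9 CpG, 20.4% had CHD7 and 24.4% had H3K27ac within 1 kb of the start site, and 71.8% had neither. Of 2110 promoters with 10 to 14 CpG, 53.6% had CHD7 and 59.1% had H3K27ac, with both at 47.1% and H3K27ac alone at 12.0%. Of 4358 promoters with 20 to 29 CpG, 68.8% had both and 12.5% had H3K27ac alone. The median over all promoters was 13 CpG. These shares describe promoters, which are not replicates, and CpG content was not separated from other promoter features.

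**Figure D3:**
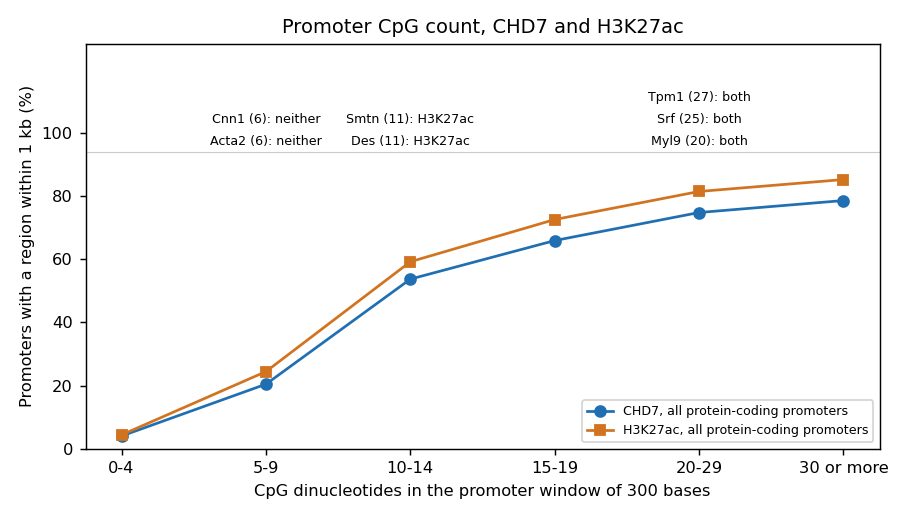
Share of all protein-coding promoters with a CHD7 (blue circles) or H3K27ac (orange squares) region within 1 kb of the start site, in percent, by the number of CpG dinucleotides in 300 bases (x axis). The 7 smooth muscle genes are written above their bin with their CpG count and what was called. Acta2 and Cnn1, with 6 CpG, stand over a bin at 20.4% and 24.4%, and Myl9, Srf and Tpm1 over one at 74.7% and 81.4%.

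Other genes of the pathway were taken from 3 lists. Over all protein-coding genes, CHD7 lay at an end of 44.2%, H3K27ac of 47.6% and both of 39.3%. The lists were not tested against these shares. A call here and in the lists below needed a region in both libraries. Whether genes given as lacking an antibody had a peak of 1 library was not checked. Among 15 other contractile genes of smooth muscle, CHD7 lay at an end of 8 (53.3%), H3K27ac at 8 (53.3%) and both at 6. The highest CHD7 folds were at Itga8, an integrin subunit (4.97 and 4.40), Ppp1r12a, the targeting subunit of myosin phosphatase (4.13 and 3.99), and Csrp2, a LIM-domain protein (4.23 and 3.70). Mylk, the myosin light chain kinase, had H3K27ac (4.45 and 4.06) without CHD7, as did Ppp1r14a, an inhibitor of myosin phosphatase (2.41 and 2.78). Actg2, the gamma-actin of enteric smooth muscle, Csrp1 and Flna had neither.

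Beside the all-gene shares of 44.2%, 47.6% and 39.3%, the second list held 17 regulators around SRF and myocardin. Among them CHD7 lay at 9 (52.9%), H3K27ac at 11 (64.7%) and both at 8. Elk4, a ternary complex factor that binds DNA with SRF, had the highest folds of the list for both antibodies, 7.23 and 5.80 for CHD7 and 7.82 and 7.17 for H3K27ac. Rock1, a kinase downstream of RhoA (CHD7 4.28 and 4.20), and Diaph1, a formin that assembles actin (CHD7 3.22 and 4.88), followed. The myocardin relatives Mrtfa (CHD7 3.54 and 3.96) and Mrtfb (4.31 and 3.47) had both antibodies, unlike Myocd, and were picked for mention after their values had been seen. Elk1, Gata6 and Klf4, the latter a repressor of the smooth muscle program, had H3K27ac without CHD7, and Fhl2, Foxo4 and Hdac4 had neither.

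The third list held 20 genes linked to smooth muscle induction in the crest, beside all-gene shares of 44.2%, 47.6% and 39.3%. Among these 20, CHD7 lay at 8 (40%), H3K27ac at 12 (60%) and both at 7. Tgfbr2, a TGF-beta receptor (CHD7 4.36 and 3.82), Notch2 (3.82 and 4.10) and Smad3 (3.42 and 3.05), a transducer of TGF-beta, led in CHD7. Jag1, a NOTCH ligand (H3K27ac 5.04 and 4.68), Hey1, a NOTCH target (3.26 and 3.59), and Meis1 (2.73 and 2.61) had H3K27ac without CHD7. Foxc1, Hand2 and Heyl had neither.

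The muscle and non-muscle relatives of the members differed in their counts. The all-gene shares at an end were again 44.2% for CHD7, 47.6% for H3K27ac and 39.3% for both. Of 17 cytoskeletal genes used outside muscle, among them relatives of the members in the actin, myosin, tropomyosin, calponin and transgelin families, CHD7 lay at an end of 16, H3K27ac at 14 and both at 14. Vcl, vinculin (CHD7 4.37 and 4.35), Smtnl2 (4.46 and 3.98) and Tpm4 (3.81 and 4.34) led, and Tpm3 was the one with neither. Of 26 contractile genes of striated muscle, CHD7 lay at 3, H3K27ac at 3 and both at 2. These were Mylpf (CHD7 3.62 and 3.88), Acta1 (3.41 and 2.86) and Actn3 (2.81 and 3.28), with H3K27ac at Mylpf, Actn3 and Tnnt3, while Actc1, Actn2 and Ckm had neither. The smooth muscle genes, at 4 and 5 of 10, thus stood between both lists and near the 44.2% and 47.6% of all genes. The median CHD7 fold of the genes called was 3.16 for the smooth muscle genes, 3.27 for the non-muscle and 3.13 for the striated list. For H3K27ac it was 3.35, 4.24 and 3.98. These medians use regions at ends alone. They leave out the H3K27ac region after the start site of Srf, with a mean fold of 4.95. For CHD7 they take the Srf region that contains the start site of Cul9. Within 1 kb of annotated start sites, CHD7 lay at 14 and H3K27ac at 14 of 16 non-muscle genes, and each at 1 of 22 striated genes. Over all genes with such a site the shares were 45.4% and 49.7%. Whether a call at an end belonged to a neighbouring gene was not tested for these lists. The lists were not tested against each other.

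**Figure D4:**
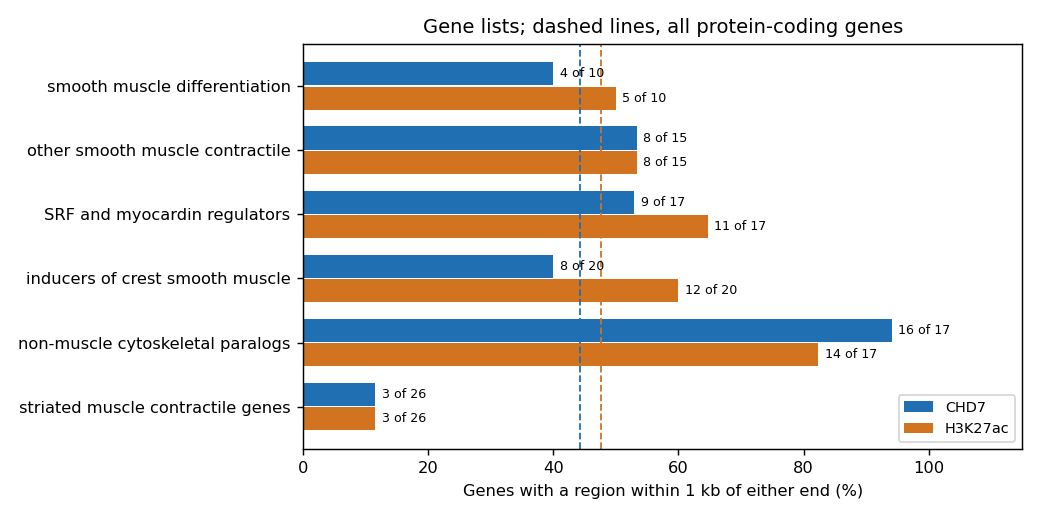
Percent of genes with a CHD7 (blue) or H3K27ac (orange) region within 1 kb of either end (x axis), for the smooth muscle genes and 5 lists of other genes. Bars start at 0, labels give the number of genes, and dashed lines mark all protein-coding genes, 44.2% and 47.6%. Non-muscle genes reach 16 of 17 and 14 of 17, and striated muscle genes 3 of 26 each.

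Marker genes were checked in the same way, beside the 47.6% of all genes with H3K27ac, the 44.2% with CHD7 and the 39.3% with both at an end. The share of all genes with neither at an end was not computed separately, so counts of neither are not read against a background. Of 15 neural crest genes, H3K27ac lay at an end of 4 (Sox9, Twist1, Prrx2 and Msx2) and CHD7 at 3 (Sox9, Snai2 and Ets1), and 9 had neither (Sox10, Tfap2a, Tfap2b, Foxd3, Pax3, Hand2, Prrx1, Dlx5 and Msx1). H3K27ac lay at 0 of 8 cardiomyocyte and 0 of 8 endothelial markers, at 1 of 6 skeletal muscle and paraxial mesoderm markers (Tcf15) and at 1 of 8 epithelial markers (Krt8). CHD7 lay at none of the cardiomyocyte markers, at 3 endothelial markers (Kdr, Erg and Cldn5), at Tcf15 and at 1 epithelial marker (Epcam). Of the 9 crest markers with an annotated start site, CHD7 lay within 1 kb of it at 0 and H3K27ac at 3. For 6 endothelial markers these counts were 3 and 0. They were 0 and 0 for 7 cardiomyocyte markers, 0 and 0 for 3 skeletal muscle and paraxial mesoderm markers, and 1 and 1 for 6 epithelial markers. Over all genes with such a site the shares were 45.4% and 49.7%. A marker without a peak is not shown to be silent. How far cells of other types in the sort bear on the calls at the smooth muscle genes was not tested.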

How the data were processed

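The deposited files are peak lists of 6 ChIP-seq and input libraries, each called on a single library. The tools listed in the submitters' processing notes are MACS2 2.1.2, Picard, Bowtie2 2.3.3.1 and bcl2fastq 2.18.0.12, with the build mm10. No source used here says whether input served as the control. Each deposited peak has a fold enrichment (a ratio), a p-value and q-value as −log10 and an integer score. The lists hold no read counts, so depth is unknown, and fold was not compared between antibodies.

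With Python 3.11.15 and pandas 2.3.3, rows that repeat an interval for several summits became 1 peak, which took the highest fold. Only the chromosomes 1 to 19, X and Y were used. A consensus region needed a peak in both libraries, and overlap meant at least 1 bp. Genes came from RefSeq tables of GRCm38.p6, without those placed below position 3000000 (500000 on Y). The interval functions were tested on simulated data. The labels number the libraries of each group alike but do not say that equal numbers share a source, so the block by number is an alternative only.

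The members and gene lists were chosen with earlier results of these data known. All 10 members are named. From each pathway and comparison list the text names the 3 genes with the highest CHD7 fold and, in alphabetical order, up to 3 with H3K27ac alone and up to 3 with neither. Mrtfa, Mrtfb and the single marker genes lie outside this rule and were named after their values were seen. Alternatives changed the q limit, the window, the overlap, the libraries needed and input peaks.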

Additional observations from a re-analysis of the deposited data

How the results depend on the processing

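The counts at gene ends were 4 genes with CHD7, 5 with H3K27ac and 3 with both. They held within 1.5 times with windows of 0.5 and 2.5 kb and without peaks that overlap input. So did the counts of regions (9 and 13) within 50 kb, with the nearest of all genes and without input peaks. The 5 overlaps of each antibody with the other held at a required overlap of 0.5 of the shorter region. At annotated start sites the counts were 3, 5 and 3, but of the 7 matched genes and partly at other genes. Both antibodies lay at the start sites of Srf, Myl9 and Tpm1, and at ends of Myl9, Tpm1 and Smtn. The counts at ends, of regions and of overlaps moved with the q limit. At a −log10 q of 5 or more, CHD7 lay at an end of 1 gene (Smtn), against 29.5% of all genes. H3K27ac lay at 2 (Myl9 and Tpm1), against 41.1%, and both at 0. There were 5 CHD7 and 5 H3K27ac regions and 3 overlaps in either direction. At 10 or more, CHD7 had 0 regions and 0 genes (10.6% of all genes), and H3K27ac had 4 regions and 2 genes (28.3%). Overlaps and genes with both were 0. With a region in either library, CHD7 lay at 7 genes (55.1% of all genes), H3K27ac at 6 (53.3%) and both at 6, with 21 CHD7 and 17 H3K27ac regions and 12 overlaps in either direction. Both lay at the start site of 3 of 7 members, of 5 with a region in either library, of 1 at the q limit of 5 and of 0 at 10, all chosen after seeing the data. Over all genes with a start site, the shares before the limit of 10 were 41.0%, 51.1% and 27.2% in the same order. At the limit of 10 this share was not computed. CHD7 lay at an end of 10.6% of all genes at that limit. Without replicate 1 or without replicate 2, regions came from 1 library alone, which by construction adds peaks: CHD7 lay at 6 and 5 genes, H3K27ac at 5 and 6, and both at 4 and 5, with 15 and 16 CHD7 regions, 16 and 15 H3K27ac regions, and 8 and 9 overlaps in either direction. The all-gene shares in these cases were 49.1% and 51.1% for CHD7 and 49.8% and 51.3% for H3K27ac. For both at an end, the all-gene share was computed at the main setting alone (39.3%). The counts of both at other settings therefore have no background beside them. With the replicate number as a block, the difference between antibodies in members with a boundary peak stayed 0 (exact permutation p = 1, two-sided, smallest possible 0.50). It was 2.5 at the −log10 q limit of 10 (exact permutation p = 0.333, the smallest possible), 0.50 with 2.5 kb, and −1 and 1 without replicate 1 and without replicate 2. Promoters with a CArG box rose from 2 to 3 of 7 with 1 mismatch. The cause of the moves with the q limit was not tested, and without read counts, depth cannot be set beside them.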
